A study of Mus musculus with 11 samples.

Results

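This account concerns 10 genes that mark preadipocytes or restrain fat cell formation, followed through RNA-seq of cultured mouse fat precursors. They were chosen by symbol from a fixed list, in which Dlk1, Ly6a, Pdgfra and Pdgfrb are cell surface proteins, Gata2, Gata3, Zfp521 and Zfp423 are zinc-finger regulators, and Sox9 and Twist1 are transcription factors of the SOX and basic helix-loop-helix (bHLH) families. All 10 symbols were found, among 29955 gene symbols with a representative sense transcript, and each passed the minimum mean of 0.1 FPKM (the usual expression level per kilobase of exon and per mapped total of the library, here worked out from mapped bases) in both sets of samples.

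The cells were im-scWAT, preadipocytes from mouse inguinal subcutaneous white fat immortalized with SV40 large T antigen. The 6 untransduced samples were collected at days 0, 4 and 8 of differentiation, 1 from a culture series with rosiglitazone (ROS) and 1 from a series without it at each day. ROS, a ligand of the adipogenic nuclear receptor PPARγ, was given at 0.5 μM from day 0 together with an induction mixture that both series received, so the samples of day 0 preceded it and were taken as 2 samples of 1 state. The other 5 samples were transduced cells at day 8 with ROS. All of these carried the knockdown construct sh-mJmjd1a and a retroviral, LTR-driven human JMJD1A, a histone demethylase that the mouse gene Kdm3a encodes. The human protein was WT in 2 samples (WT A and WT B), or had alanine (S265A) or aspartate (S265D) in place of a phosphorylated serine, or aspartate together with a change in the catalytic domain (S265D-H1120Y), in 1 sample each. There was no transduced sample at day 0 or without ROS. Nothing in the sources used here says that the paired samples came from separate cultures, so p-values measure only the spread between these samples, which may be technical. At days 4 and 8 the pair is 1 sample with and 1 without ROS, so in the time course that spread also holds any difference between them.

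Preadipocytes are committed fibroblast-like precursors that are held back from becoming fat cells by secreted and membrane signals and by transcription factors. DLK1, whose ectodomain is shed, signals through SOX9 to block differentiation, and GATA2 and GATA3 act against the adipogenic program of PPARγ and the C/EBP proteins. ZFP521 and ZFP423 are related zinc-finger proteins with opposite roles, since ZFP521 represses and ZFP423 supports commitment to the fat lineage. PDGFRα and PDGFRβ, receptors for platelet-derived growth factors, and the surface antigen encoded by Ly6a are used to sort fat precursors from the stroma, and TWIST1 is a mesenchymal regulator that in brown fat also curbs thermogenic genes.

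The total of mapped bases was 3.10 to 5.29 Gb per sample, with a median of 4.64 Gb. Adipocyte markers followed the day of the label, since the summed FPKM of 8 of them was 282 to 285 in the samples of day 0 and 9981 to 34878 in the 9 later samples. Of markers for other cells, Ptprc, Emr1, Cdh5, Upk3b and Wt1 were under 0.1 FPKM in every sample. The 6 mural cell markers summed to 3.69 to 3.86 FPKM at day 0 and 14.5 to 32.3 FPKM later, and the 4 mesothelial markers, which were mostly Krt19, to 60.9 to 65.3 FPKM and 0.124 to 36.4 FPKM. The 5 endothelial markers summed to 0.422 to 0.483 FPKM at day 0 and 0.409 to 4.00 FPKM later, and the 5 macrophage and leukocyte markers to 2.77 to 2.78 FPKM and 0.602 to 22.0 FPKM. The part of these cells in the results below was not tested. Kdm3a, the target of the knockdown, was at 15.1 to 23.2 FPKM in untransduced samples and in transduced cells at 20.4 and 17.9 for the WT pair (A, then B), at 13.0 for S265A, at 23.0 for S265D and at 28.5 for S265D-H1120Y, so that its rows did not show a knockdown. The authors reported from immunoblots and qPCR that the construct depleted endogenous JMJD1A. Whether reads of the human transgene were counted in the Kdm3a rows was not tested.

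For 3 of the regulators whose levels changed with differentiation, a RefSeq promoter entry (GRCm38.p6) ended exactly at the start of the transcript measured here, and the 250 bases before that start are shown so that their motifs can be set beside the expression values. Each window was found once in mm9, the build of the files. They lie upstream of Gata2 at chr6:88148408-88148657 on the plus strand, of Twist1 at chr12:34642286-34642535 on the plus strand, and of Zfp423 at chr8:90483495-90483744 on the minus strand. Capitals mark the letters GATA (the core of GATA sites), CANNTG (the E-box of bHLH factors), ACAAT (a core of SOX sites) and CCAAT (a common promoter element), searched on both strands; ACAAT and CCAAT cannot match at 1 place, and no matches overlapped in these windows.
Gata2: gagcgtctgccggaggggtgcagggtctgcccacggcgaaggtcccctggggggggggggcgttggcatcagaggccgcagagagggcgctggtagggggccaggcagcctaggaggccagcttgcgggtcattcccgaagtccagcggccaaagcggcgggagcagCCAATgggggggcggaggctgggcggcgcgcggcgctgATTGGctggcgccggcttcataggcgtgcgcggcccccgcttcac
Twist1: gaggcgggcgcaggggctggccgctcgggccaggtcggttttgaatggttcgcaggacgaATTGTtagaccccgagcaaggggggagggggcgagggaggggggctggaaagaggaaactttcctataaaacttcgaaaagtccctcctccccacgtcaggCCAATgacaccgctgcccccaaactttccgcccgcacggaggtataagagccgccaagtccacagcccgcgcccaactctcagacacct
Zfp423: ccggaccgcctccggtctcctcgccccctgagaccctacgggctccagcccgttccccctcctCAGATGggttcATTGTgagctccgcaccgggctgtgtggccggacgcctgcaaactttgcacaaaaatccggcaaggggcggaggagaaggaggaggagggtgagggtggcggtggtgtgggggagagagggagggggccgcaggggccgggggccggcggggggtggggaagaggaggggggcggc

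The Gata2 window held CCAAT at 2 places, the Twist1 window held ACAAT and CCAAT at 1 place each, and the Zfp423 window held CANNTG and ACAAT at 1 place each. Among 32841 mouse promoter windows of the same length, 53.6% held GATA, 66.2% held CANNTG, 27.7% held ACAAT and 33.9% held CCAAT. The GC content was 74.0% for Gata2, 62.4% for Twist1 and 71.6% for Zfp423. These matches are descriptions of letters and were not tied to binding.

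The first question was how the genes moved when the cells left the preadipocyte state. Of the 10 genes, 7 changed between day 0 and day 4 in limma on log2(FPKM + 0.1), at an adjusted p of at most 0.05 (Benjamini-Hochberg over 15201 genes). Dlk1, Pdgfrb, Gata2, Sox9 and Twist1 fell, whereas Pdgfra and Zfp423 rose. The same 7 genes, in the same directions, were called between day 0 and day 8, a comparison that shares the samples of day 0. The background was high, since 41.6% of all genes were called at day 4 and 51.0% at day 8. In these bulk samples fewer cells that express a gene and less of its RNA per cell cannot be told apart.

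**Figure D1:**
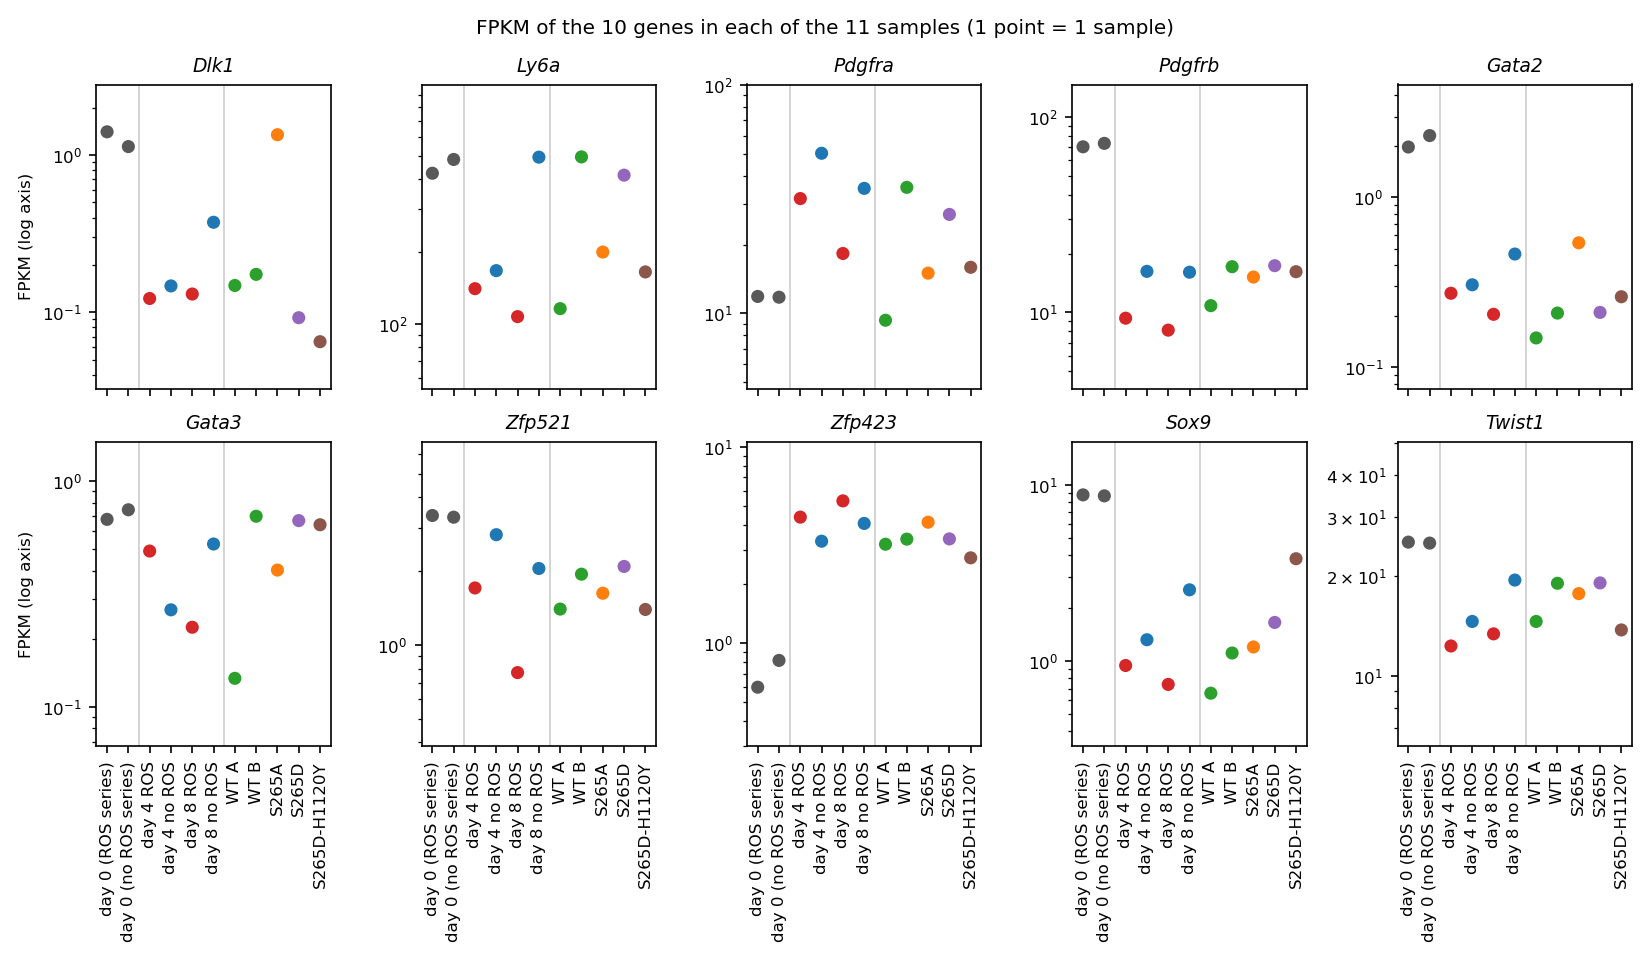
FPKM of each gene (log axis) in each of the 11 samples, 1 point a sample, with day 0 in grey, days 4 and 8 with ROS in red and without ROS in blue, and transduced cells to the right in their own colours. Pdgfrb, Gata2, Zfp521, Sox9 and Twist1 were higher in both samples of day 0 than in all 9 later samples, Zfp423 was lower, and Dlk1 in S265A, at 1.35 FPKM, lay at the level of day 0.

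Among the surface proteins, Pdgfrb (chr18:61204804-61244721, mm9) was the gene with the clearest loss. It was at 70.3 and 73.2 FPKM at day 0 (mean 71.7 ± 2.05, SD, n = 2), at 9.34 with and 16.2 without ROS at day 4, and at 8.11 with and 16.1 without ROS at day 8. Every later sample, transduced cells included, was at 17.3 FPKM or lower. The log2 change in limma was -2.53 ± 0.38 (SE) at day 4 (adjusted p = 0.00413) and -2.64 ± 0.38 at day 8 (adjusted p = 0.00291).

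The other PDGF receptor gene, Pdgfra (chr5:75552191-75594229), went the opposite way. It was at 11.9 and 11.8 FPKM at day 0, at 31.8 with and 50.2 without ROS at day 4, and at 18.3 with and 35.2 without ROS at day 8. All 4 differentiated samples of the time course were above day 0, and the samples without ROS were the highest at each day. In limma the log2 change was 1.75 ± 0.35 at day 4 (adjusted p = 0.0107) and 1.10 ± 0.35 at day 8 (adjusted p = 0.0395). Both calls depended on single samples, for the day 4 call was lost without either sample of day 0 (adjusted p = 0.0648 and 0.0697 in limma) or without day 4 no ROS (0.0656), and the day 8 call without either sample of day 0 (0.143 and 0.141), without day 4 ROS (0.0509) or without day 8 no ROS (0.0673). With all samples kept, both calls were also lost without the filter on FPKM (adjusted p = 0.0954 at day 4 and 0.203 at day 8, in limma). The day 8 call was lost without the variance trend (0.0614), and both were lost with all 11 samples in the fit. In transduced cells Pdgfra overlapped day 0, since WT A was at 9.33 FPKM and the other 4 samples were at 15.0 to 35.6 FPKM.

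The genes for the ligands of these receptors were not among the 10. Of the 4 listed, 3 were expressed enough to be tested, and Pdgfa, Pdgfc and Pdgfd fell at day 4, with log2 changes of -2.13, -1.54 and -1.22 (adjusted p = 0.00124, 0.0139 and 0.0472 in limma). At day 8 the calls held for Pdgfa and Pdgfc.

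Dlk1 (chr12:110691665-110701546) was expressed at a low level even at day 0, where it was at 1.41 and 1.13 FPKM. It was at 0.122 with and 0.147 without ROS at day 4, and at 0.131 with and 0.374 without ROS at day 8. The day 0 samples rested on 28458 and 22818 mapped bases and those of day 4 on 2684 and 1981, so the differences between the later samples are less precise than that from day 0. Its log2 change in limma was -2.54 ± 0.40 at day 4 (adjusted p = 0.00522) and -2.04 ± 0.40 at day 8 (adjusted p = 0.00838). The calls were lost narrowly without the day 0 sample of the ROS series (adjusted p = 0.0503 at day 4 and 0.0684 at day 8, in limma).

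Ly6a (chr15:74825307-74828318) was by far the most highly expressed of the 10 genes per length, and it did not pass the test. It was at 424 and 484 FPKM at day 0, at 141 with and 167 without ROS at day 4, and at 108 with and 495 without ROS at day 8. Both samples of day 4 and the day 8 sample with ROS were below day 0, whereas the day 8 sample without ROS was slightly above it. The log2 differences from day 0 were -1.56 ± 0.65 at day 4 (adjusted p = 0.0995 in limma) and -0.97 ± 0.65 at day 8 (adjusted p = 0.248). The 2 samples of day 8 lay farther apart than those of day 0 or day 4. Without day 8 no ROS the adjusted p in limma was 0.000151 at day 4 and 0.000107 at day 8, where the log2 difference was -2.07, and without day 8 ROS it was 0.000312 at day 4, while the difference at day 8 turned to 0.13. With the culture series as a block beside day, Ly6a was also called at day 4 (adjusted p = 0.0422 in limma). Ly6a belongs to a gene family with close copies, and reads shared with them cannot be apportioned from these values.

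Of the 14 other surface markers of fat precursors that were listed, 12 were tested, and at day 4 Thy1, Eng, Itgb1, Cd44 and F3 fell and Nt5e rose. At day 8, 7 were lower and 4 higher, with Cd44 at -3.29 and Nt5e at 3.00 on the log2 scale (adjusted p = 0.00453 and 0.000945 in limma). Of all genes tested, 19.4% were lower and 22.2% higher at day 4, and 25.0% and 26.1% at day 8. The summed FPKM of the 14 was 311 to 318 at day 0 and 83.8 to 187 later. Itgb1 was the largest part of the sum in every sample, at 146 and 135 FPKM at day 0.

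Among the zinc-finger regulators, Gata2 (chr6:88148658-88157026), whose promoter window is shown above, was at 1.98 and 2.32 FPKM at day 0. It was at 0.272 with and 0.306 without ROS at day 4, and at 0.205 with and 0.464 without ROS at day 8. No later sample exceeded 0.541 FPKM. In limma, the change on the log2 scale was -2.53 ± 0.36 at day 4 (adjusted p = 0.00345) and -2.44 ± 0.36 at day 8 (adjusted p = 0.00313), and both calls held under all 13 alternatives in which the gene was tested.

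Gata3 (chr2:9778705-9800227) was, with Zfp423, the lowest of the 10 genes at day 0, and gave no call. It was at 0.675 and 0.744 FPKM at day 0, at 0.489 with and 0.268 without ROS at day 4, and at 0.225 with and 0.525 without ROS at day 8. All 4 later values of the time course were below day 0, but the sample with ROS was the higher at day 4 and the lower at day 8. The log2 differences from day 0 were -0.80 ± 0.42 at day 4 and -0.84 ± 0.42 at day 8 (adjusted p = 0.172 and 0.137 in limma). Without day 8 no ROS the day 8 difference was -1.32 (adjusted p = 0.0208 in limma).

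Of the 6 other genes listed for the GATA axis, 4 were tested. Zfpm1 and Zfpm2, the cofactors also called FOG proteins, fell at day 4, with log2 changes of -2.53 and -1.65 (adjusted p = 0.00197 and 0.0449 in limma), and also at day 8, whereas the differences for Gata4 and Gata6 were -0.92 and 0.25 at day 4 and did not pass the test.

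The paired zinc-finger genes Zfp521 (chr18:13845523-14131242) and Zfp423 (chr8:90185709-90483494) differed in direction. Zfp521, the repressor, was at 3.38 and 3.32 FPKM at day 0, at 1.71 with and 2.82 without ROS at day 4, and at 0.771 with and 2.05 without ROS at day 8. All 9 later samples were below day 0, with a range from 0.771 to 2.82 FPKM. The log2 differences did not pass the test, at -0.59 ± 0.46 at day 4 (adjusted p = 0.344 in limma) and -1.33 ± 0.46 at day 8 (adjusted p = 0.0529). Without day 8 no ROS the day 8 difference was -1.99 (adjusted p = 0.00198 in limma). With all samples kept it was called with a pseudocount of 1 (adjusted p = 0.0457 in limma), with median-of-ratios scaling (0.0368), with all 11 samples in the fit (0.0422) and with the culture series as a block (0.0209), so this call depended on the setting.

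Zfp423, which supports commitment, was at 0.598 and 0.819 FPKM at day 0, at 4.40 with and 3.31 without ROS at day 4, and at 5.32 with and 4.08 without ROS at day 8. All 9 later samples, from 2.73 to 5.32 FPKM, were above day 0. The log2 change in limma was 2.29 ± 0.27 at day 4 (adjusted p = 0.00184) and 2.57 ± 0.26 at day 8 (adjusted p = 0.00106), and both calls held under all 14 alternatives. Of the genes for 5 functional partners of these proteins, Ebf1 rose at day 4 by 1.40 and at day 8 by 0.99 on the log2 scale (adjusted p = 0.000512 and 0.00138 in limma). Ebf2 rose at day 4 by 1.06 (adjusted p = 0.0317 in limma) but was not called at day 8 (0.145). Ebf3 went the other way and fell at day 8, with a log2 change of -0.71 (adjusted p = 0.0367 in limma). Wisp2, a secreted protein that holds ZFP423 in the cytosol, fell at both days, with log2 changes of -3.62 and -1.93 (adjusted p = 0.00121 and 0.00752 in limma). Bmp4 was not called at either day.

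Sox9 (chr11:112643524-112649071), which acts downstream of DLK1, was at 8.78 and 8.67 FPKM at day 0. It was at 0.946 with and 1.32 without ROS at day 4, and at 0.739 with and 2.54 without ROS at day 8. The later samples stayed at 3.81 FPKM or lower. In limma the log2 change was -2.85 ± 0.52 at day 4 (adjusted p = 0.00827) and -2.57 ± 0.52 at day 8 (adjusted p = 0.00930). Without either sample of day 0 the calls were lost (adjusted p = 0.0568 and 0.0607 at day 4, 0.0594 and 0.0559 at day 8, in limma), as was that of day 4 without day 4 ROS (0.0665).

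Twist1 (chr12:34642536-34644696) changed least among the genes called. It was at 25.2 and 25.0 FPKM at day 0, at 12.3 with and 14.6 without ROS at day 4, and at 13.4 with and 19.4 without ROS at day 8. The 9 later samples lay between 12.3 and 19.4 FPKM, all below day 0. Its log2 change in limma was -0.90 ± 0.20 at day 4 (adjusted p = 0.0154) and -0.64 ± 0.20 at day 8 (adjusted p = 0.0388). The day 4 call was lost without any single sample of days 0 and 4 (adjusted p from 0.0537 to 0.108 in limma), and the day 8 call was lost without any of the samples of days 0 and 4 or without day 8 ROS (adjusted p from 0.0629 to 0.155).

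**Figure D2:**
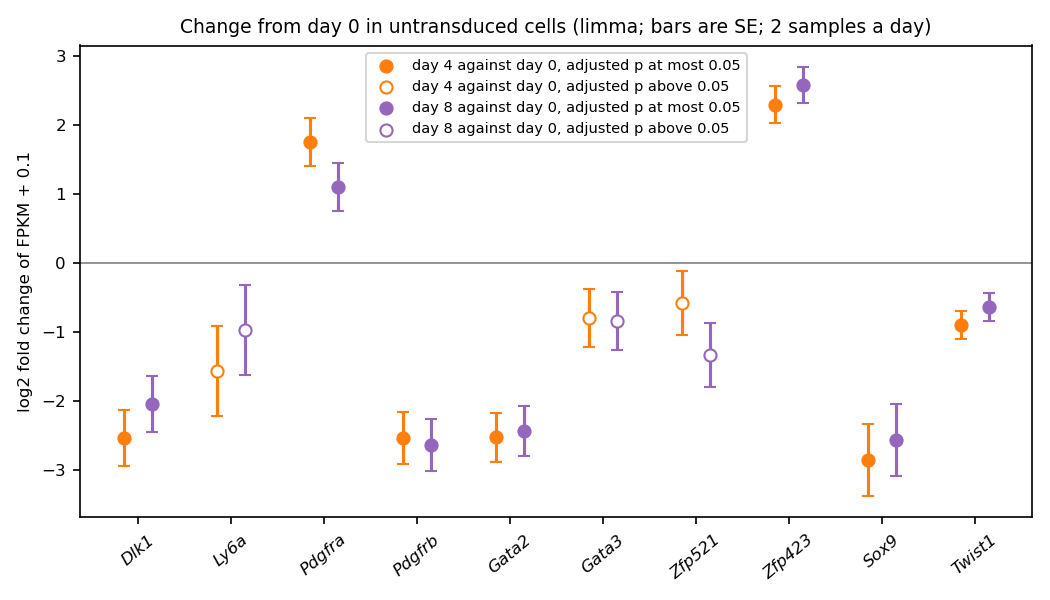
Log2 fold change of FPKM + 0.1 from day 0 (vertical axis) for each gene at day 4 (orange) and day 8 (purple) in untransduced cells, with bars for the SE of the limma fit and filled points for an adjusted p of at most 0.05. Filled points ran from -2.85 for Sox9 at day 4 to 2.57 for Zfp423 at day 8, and Ly6a, Gata3 and Zfp521 were open at both days.

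Set against all 9 later samples, 5 of the 10 genes were higher in both samples of day 0 without overlap (Pdgfrb, Gata2, Zfp521, Sox9 and Twist1), against 24.2% of 15369 genes, and 1 was lower without overlap (Zfp423), against 22.1%. Dlk1, Ly6a, Pdgfra and Gata3 overlapped. Between the 2 samples of day 0 no member differed by 2-fold or more (ratios of 0.730 to 1.24), where 3.48% of genes did.

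Related genes also moved in both directions, with more of them lower than higher. Of 52 other genes listed as precursor markers, ligands, partners or regulators, 47 were tested, and 24 were lower and 6 higher at day 4, with a median log2 change of -0.93 against 0.02 over all genes tested. Of all genes tested, 19.4% were called lower and 22.2% higher at day 4. At day 8, 28 were lower and 10 higher, with a median of -1.20 against -0.04, where 25.0% of all genes were called lower and 26.1% higher. Among 18 other regulators that act against adipogenesis, 10 fell and 3 rose at day 4. Runx2, the master regulator of bone formation, fell by 2.72 on the log2 scale at day 4 (adjusted p = 0.000730 in limma), Wnt10b, a ligand that blocks adipogenesis, fell by 2.31 (adjusted p = 0.00304), and Twist2, the close relative of Twist1, fell by 1.30 (adjusted p = 0.00138). Of the 3 that rose, Foxo1 was higher by 1.43, Sox5 by 0.99 and Ddit3 by 0.95 on the log2 scale (adjusted p = 0.00119, 0.0273 and 0.0132 in limma). All 8 adipocyte markers rose at both days, Adipoq, the adipokine gene, by 12.41 and 12.35 on the log2 scale.

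Between day 4 and day 8 no member was called in limma, where 75 genes were, or 0.493%. No member had an unadjusted p under 0.05 in limma, where 23.6% of genes did. The series nevertheless differed in their values. With ROS, Gata3 (0.460 of the day 4 level) and Zfp521 (0.451) were at least 2-fold lower at day 8 than at day 4, where 7.09% of genes were. Without ROS, Ly6a (2.96-fold) and Dlk1 (2.54-fold) were at least 2-fold higher at day 8, where 8.29% were. With a pseudocount of 0.1 on both values, Gata3 with ROS (log2 ratio -0.86) and Dlk1 without ROS (0.94) fell short of 2-fold. Each of these ratios compares 1 sample with 1 sample and has no replicate check.

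The next question was whether ROS, which turns these cultures from white toward beige adipocytes, was accompanied by different levels of the 10 genes. At day 8, 6 of the 10 were at least 2-fold lower in the sample with ROS than in the sample without it, where 14.0% of 15101 genes were. The ratios were 0.217 for Ly6a, 0.291 for Sox9, 0.349 for Dlk1, 0.376 for Zfp521, 0.428 for Gata3 and 0.441 for Gata2. Pdgfrb (0.506) and Pdgfra (0.519) were just short of 2-fold, Twist1 was at 0.690, and Zfp423 alone was higher with ROS, at 1.30. Of all genes, 68.3% were lower with ROS at day 8 by any amount. The median log2 ratio over all genes was itself -0.20, and with median-of-ratios scaling, which takes out a shift of -0.20, all 10 ratios kept their direction and 5 of the 6 stayed at 2-fold or more, Gata2 falling just short at a log2 ratio of -0.98. With a pseudocount of 0.1 on both values, Gata3 and Gata2 fell short of 2-fold, at log2 ratios of -0.95 and -0.89. Dlk1, Gata2 and Gata3 rested on low values here, at 0.131 to 0.525 FPKM in these samples.

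At day 4 the differences were smaller. No member was 2-fold apart, where 5.08% of genes were, and the ratios ran from 0.576 for Pdgfrb to 1.82 for Gata3. Of the 10 genes, 8 were lower with ROS, where 60.3% of all genes were, and Gata3 and Zfp423 (1.33) were higher. Pdgfrb and Pdgfra (0.633) stood at about the same ratio to the sample without ROS at both days.

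**Figure D3:**
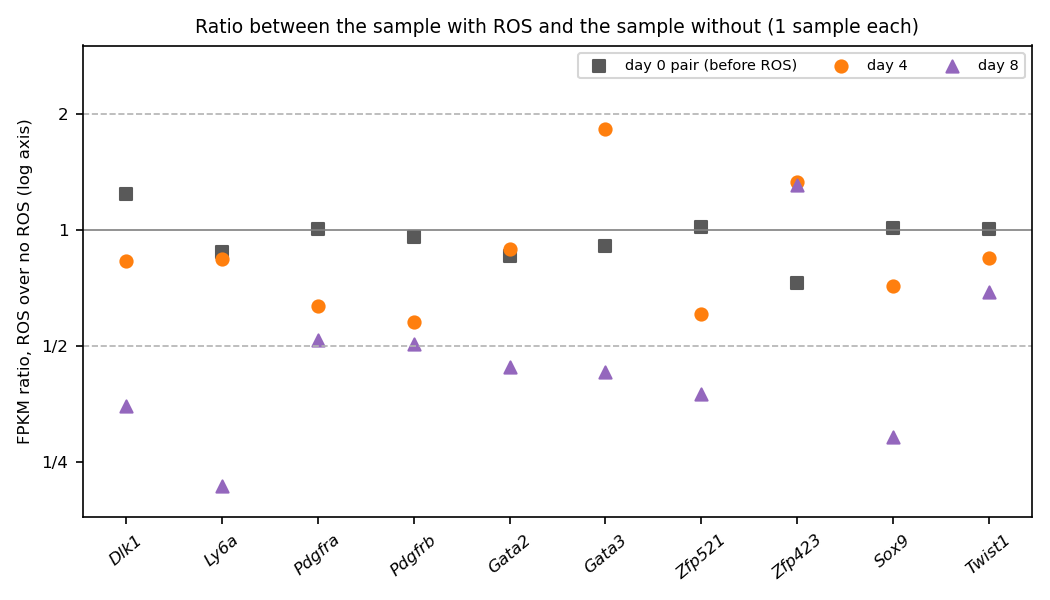
FPKM ratio of the sample with ROS over the sample without it (log axis) for each gene at day 4 (circles) and day 8 (triangles), and for the 2 samples of day 0, taken before ROS (squares), with dashed lines at 2-fold. At day 8 the ratios ran from 0.217 for Ly6a to 1.30 for Zfp423 and at day 4 from 0.576 to 1.82, while the day 0 pair stayed between 0.730 and 1.24.

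Over days 4 and 8 together, with day in the fit, limma called none of the 10 genes and 0.00% of the 15201 tested, although 6 members and 3184 genes (20.9%) had an unadjusted p under 0.05. The log2 effect of ROS was -0.88 ± 0.11 for Pdgfrb (adjusted p = 0.0869), -0.80 ± 0.12 for Pdgfra (0.103), -0.998 ± 0.22 for Zfp521 (0.123), -1.05 ± 0.30 for Sox9 (0.154), -0.39 ± 0.12 for Twist1 (0.170) and -1.23 ± 0.41 for Ly6a (0.181). It was 0.39 ± 0.21 for Zfp423 (adjusted p = 0.334 in limma), and 9 of 10 effects were below 0. The median effect over all genes tested was itself below 0, at -0.13. Beside these values, the summed FPKM of the 8 adipocyte markers was 34878 with and 9981 without ROS at day 8, and 32738 and 23492 at day 4. Most of these sums was Fabp4, at 31402 and 7631 FPKM at day 8, and the other 7 markers summed to 3476 with and 2349 without ROS. At day 8, 6 of the 8 markers were higher with ROS, whereas Pparg (140 against 231 FPKM) and Retn (238 against 278) were lower. The 14 surface markers of precursors summed to 83.8 with and 141 without ROS at day 8, the largest part being Itgb1, at 55.8 and 71.3 FPKM. The part that unequal differentiation between the cultures had in the ratios was not tested. Of the 52 related genes, 45 passed the minimum at day 8, and 15 of them were at least 2-fold lower and 1 at least 2-fold higher with ROS. Of all genes, 14.0% were at least 2-fold lower and 3.50% at least 2-fold higher.

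The last question was whether these genes differed with the form of JMJD1A at day 8 with ROS. Both WT samples carried the same construct, but WT B was higher than WT A for all 10 genes, by 1.06-fold for Zfp423 to 5.22-fold for Gata3. Of all genes, 46.3% were lower in WT B by any amount. Ly6a was at 116 FPKM in WT A and 496 in WT B, Pdgfra at 9.33 and 35.6, and Gata3 at 0.133 and 0.697, and these 3 genes exceeded 2-fold, where 15.1% of genes did. The summed adipocyte markers were 29516 FPKM in WT B and 15163 in WT A, a difference that lay in Fabp4 (26902 against 12393). The other 7 markers summed to 2614 and 2770 FPKM, and 5 of the 8, Adipoq among them (738 against 978), were lower in WT B. The levels of Ly6a, Pdgfra and Gata3 in the mutants all fell between the 2 WT samples.

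**Figure D4:**
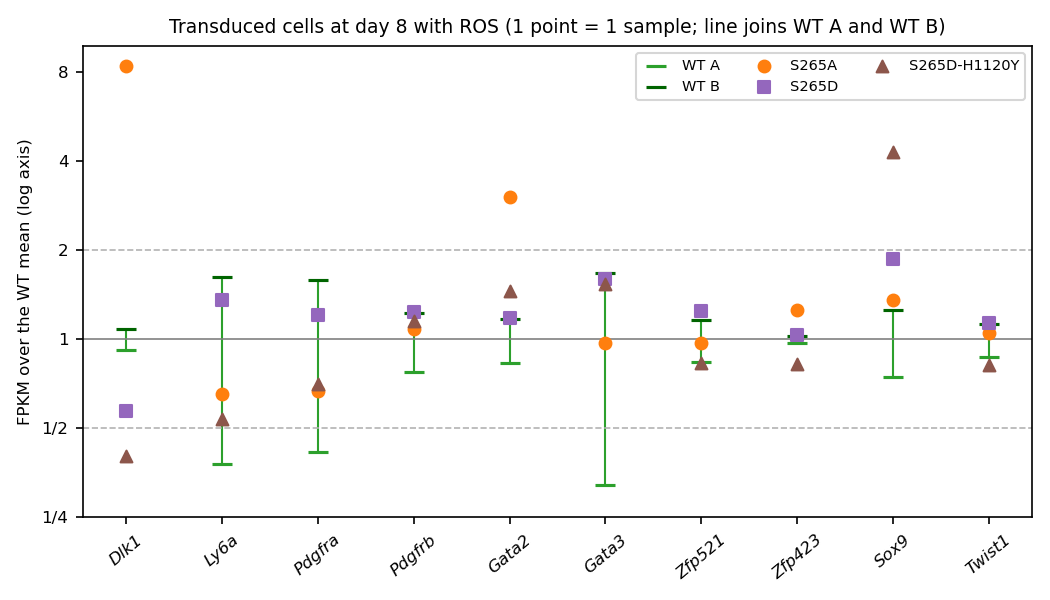
FPKM of each transduced sample at day 8 with ROS over the WT mean (log axis), with green bars joined by a line for the 2 WT samples and 1 point for each mutant. Dlk1 (8.36) and Gata2 (3.03) in S265A and Sox9 (4.31) in S265D-H1120Y lay above 2-fold and beyond both WT samples, whereas Ly6a, Pdgfra and Gata3 lay between the WT samples for every mutant.

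In limma over the 5 transduced samples, where the WT pair alone gave the spread (1 residual degree of freedom), no gene was called in any comparison. The count of genes with an unadjusted p under 0.05 was 61 for S265A, 49 for S265D and 276 for S265D-H1120Y against WT, and 151 for S265D-H1120Y against S265D. The 3 comparisons with WT share its samples. The ratios that follow are therefore values without a significant test.

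In S265A, 2 members were at least 2-fold higher than the WT mean, where 2.52% of genes were. Dlk1, the inhibitory surface protein, was at 0.148 and 0.174 FPKM in the WT pair (A, then B) and at 1.35 FPKM in S265A. The mutant sample was 9.10-fold above WT A and 7.74-fold above WT B, rested on 30962 mapped bases, and stood within the range of the day 0 samples of untransduced cells. The log2 difference from WT was 2.47 ± 0.84 (adjusted p = 1.00 in limma). Gata2 was at 0.149 and 0.208 FPKM in the WT pair and at 0.541 FPKM in S265A, or 3.64-fold and 2.60-fold, which is below its level at day 0. The other 8 genes were at 0.652 to 1.36 times the WT mean, and Sox9, downstream of DLK1, was at 1.20 FPKM against 0.658 and 1.11 in WT. Adipocyte markers summed to 26078 FPKM in S265A, most of it Fabp4 (23908). The other 7 summed to 2170 FPKM, less than in either WT sample, and 4 of the 8 markers (Adipoq, Pparg, Cd36 and Retn) were below both WT samples. Against WT A alone, Gata3 was also at least 2-fold higher (3.02), where 9.42% of genes were. Against WT B alone, Ly6a (0.402) and Pdgfra (0.421) were at least 2-fold lower, where 6.83% of genes were.

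In S265D no member was 2-fold apart from the WT mean, where 6.98% of genes were, and the ratios ran from 0.573 for Dlk1 to 1.87 for Sox9. Against WT A alone, Ly6a (3.59), Pdgfra (2.91), Gata3 (4.99) and Sox9 (2.52) were at least 2-fold higher, where 11.8% of genes were. Against WT B alone no member was 2-fold apart, where 7.83% of genes were.

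In S265D-H1120Y, Sox9 was at least 2-fold higher and Dlk1 at least 2-fold lower than the WT mean, where 13.4% of genes were 2-fold apart. Sox9 was at 0.658 and 1.11 FPKM in the WT pair, at 1.66 FPKM with S265D and at 3.81 FPKM with S265D-H1120Y, the highest of the 9 later samples. The double mutant was 5.79-fold above WT A and 3.43-fold above WT B, a log2 difference of 2.03 ± 0.68 (adjusted p = 1.00 in limma). Dlk1 was at 0.0650 FPKM, its lowest value, on 1293 mapped bases, which was 0.403 of the WT mean. With a pseudocount of 0.1 on both values, Dlk1 fell short of 2-fold, at a log2 ratio of -0.66. Against S265D, which carries the same aspartate, Sox9 was 2.30-fold higher and Ly6a was at 0.396, where 12.3% of genes were 2-fold apart. Adipocyte markers summed to 15891 FPKM in S265D-H1120Y and 25487 in S265D, the 7 without Fabp4 to 1763 and 2615, and all 8 were lower in S265D-H1120Y. The part of this difference in the ratios was not tested. Against WT B alone, Ly6a (0.332) and Pdgfra (0.447) were lower by more than 2-fold as well, and against WT A alone Gata3 was 4.79-fold higher. Of all genes, 13.5% were 2-fold apart against WT B and 23.7% against WT A.

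Transduced WT cells can be set beside untransduced cells at day 8 with ROS only through 1 untransduced sample. Relative to it, Ly6a (2.85-fold) and Zfp521 (2.17-fold) were at least 2-fold higher in the WT mean, where 17.2% of genes were. With WT A alone no member was 2-fold higher, where 13.6% of genes were, and with WT B alone 4 were, where 19.4% of genes were.

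To see which genes share these patterns, the 2 most alike genes were taken for each member by Pearson r of log2(FPKM + 0.1) over the 11 samples, among 12415 or 12416 genes with a mean of at least 1 FPKM. The points include the 2 samples of day 0, and over the 9 later samples alone the r of these pairs ran from 0.806 to 0.956. For Pdgfrb they were Pcdh18 (r = 0.986), a protocadherin, and Bin1 (0.984), for Sox9 Arhgap17 (0.975) and Mtap4 (0.973), and for Gata2 the symbols aprt (0.991) and Aprt (0.981). For Dlk1, whose pattern also has the high value in S265A, they were Dctn6 (0.950) and Arl2bp (0.901). For Ly6a they were Casp12 (0.932) and Ly6c1 (0.931), the latter a member of its own gene family, and for Pdgfra St3gal1 (0.967) and Ggh (0.950). Gata3 was most like Snapc4 (0.954) and Cd47 (0.932), Zfp521 like Zcchc10 (0.972) and Prps2 (0.971), Zfp423 like Uck1 (0.987), and Twist1 like 5430435G22Rik (0.954) and Rab7b (0.954). Among the members themselves, over all 11 samples, the closest pairs were Pdgfrb with Gata2 (0.917) and with Sox9 (0.912). The most opposed pair was Pdgfrb with Zfp423 (-0.956). All of these genes separated day 0 from the 9 later samples without overlap, so these r values include that difference. For pairs of members, r over the 9 later samples alone was not calculated.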

How the data were processed

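RNA-seq was analysed in 11 samples in 9 groups, as the sample labels give them. The authors sequenced TruSeq libraries on an Illumina HiSeq, mapped them to the mm9 genome and to UCSC transcripts (Burrows-Wheeler aligner), and calculated FPKM on each strand. The authors deposited FPKM per transcript, and beside it the log10 of the FPKM. The deposited files also hold the log2 of the FPKM, and the signal (coverage) as mapped bases per transcript. No count test was used, since the files hold no read counts. A read is counted in full for every overlapping transcript.

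Each gene symbol was represented by its sense row flagged as representative. The members and gene lists were chosen with earlier results of these data known. Genes named are the 10 members, those of fixed lists, and for each member the 2 genes most alike. Of the latter, a transcript listed only by an accession is not named.

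Differences were tested with limma 3.58.1 (R 4.3.3) on log2(FPKM + 0.1), with a variance trend and Benjamini-Hochberg adjustment over genes with a mean of at least 0.1 FPKM in the fitted samples, called at an adjusted p of at most 0.05. The time course fit had day as a factor over 6 samples (3 residual degrees of freedom), the ROS fit had day and ROS (2), and the fit of transduced cells had group over 5 samples (1). The pseudocount understates the change of genes at low FPKM. The limma script was tested on simulated data. Where a condition had 1 sample, the ratio of FPKM without a pseudocount is given and called at 2-fold, with no test. Tables and figures were made with Python 3.11.15, numpy 2.4.6, pandas 2.3.3 and matplotlib 3.10.9. At these depths an FPKM of 0.00944 to 0.0161 stands for 100 mapped bases over 2 kb of exon. Alternatives changed the pseudocount, the minimum FPKM, the transcript rows, the scaling between samples, the variance trend, the samples in the fit, left out 1 sample at a time, and, added after seeing the data, took the culture series as a block. Sequences came from RefSeq promoter entries (GRCm38.p6), matched by symbol for 6 members (8 entries) and located in mm9 by exact match. The entries of Dlk1, Pdgfra, Gata3, Pdgfrb and Zfp521 are not shown. Gata2 and Zfp423 each had another entry, also not shown. That of Gata2 held none of the motifs, and that of Zfp423 held CANNTG at 3 places. The labels and the methods differ on the day on which ROS was removed, and the grouping here uses only whether ROS was given.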

Additional observations from a re-analysis of the deposited data

Results flagged for a closer look

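Ly6a differed between the 2 culture series in its direction from day 0 to day 8. The log2 ratio to the day 0 mean was -2.07 with ROS and 0.13 without ROS. The difference was not tested, because each series had 1 sample at day 8. Gata3 differed in the direction of its ROS ratio between days, with a log2 ratio of ROS over no ROS of 0.68 at day 4 and -0.95 at day 8, and this was not tested either, for the same reason.

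Antisense rows, which enter no comparison of the report, held more than 300 mapped bases in at least 1 sample for 7 members. The highest antisense FPKM was 0.256 for Ly6a, 0.0684 for Pdgfra, 0.169 for Pdgfrb, 0.0130 for Zfp521, 0.123 for Zfp423, 0.0462 for Sox9 and 0.429 for Twist1. Antisense FPKM made up at most 2.94% of both strands together for any member in any sample (Gata2, where it rested on few bases).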

How the results depend on the processing

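Only the WT group carries replicate letters, so no groups share a replicate number, but the series label links the untransduced samples across days. With culture series as replicate block beside day, an alternative chosen after seeing the data, 6305 genes were called at day 4, 7667 at day 8 and 66 between them. At each of days 4 and 8, 2 members were then higher and 6 lower, with Ly6a added at day 4 and Zfp521 at day 8, and no call of a member was lost. In this fit the series cannot be told apart from ROS, and whether the series were kept as separate cultures from day 0 is not given in the sources used here. Zfp423 and Gata2 kept their calls at day 4 and day 8 under every alternative in which they were tested. Pdgfrb kept its call under all 14 at day 8 and under 13 of 14 at day 4. No member was called for ROS or for a mutant under any alternative. The cause of the changes below was not tested.

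Without a filter on FPKM, the calls of Dlk1, Pdgfra, Sox9 and Twist1 were lost at both days, and that of Pdgfrb at day 4. This setting left 1 member higher and 1 lower at day 4 (3417 genes called in place of 6330), 1 higher and 2 lower at day 8 (4833 in place of 7755), and 12 genes differed between days 4 and 8 in place of 75. It gave 27 calls for ROS, 697 for S265A, 738 for S265D and 683 for S265D-H1120Y against WT, and 1006 for S265D-H1120Y against S265D, all in place of 0. With a mean FPKM of at least 1, where Dlk1, Gata2 and Gata3 were not tested, 3 members were lower at day 4 and 3 at day 8. With all 11 samples in the fit, 1 member was higher at day 4 and 1 at day 8, and 2256, 3678 and 0 genes were called at day 4, at day 8 and between them. Pdgfra and Twist1 lost their calls at both days in that fit. Without the variance trend 1 member was higher at day 8, where the calls of Pdgfra and Twist1 were lost. Genes called between days 4 and 8 were 122 with a pseudocount of 1, 46 with all sense rows summed, 124 with median-of-ratios scaling and 41 without the trend, and that scaling gave 3 calls for ROS. A pseudocount of 0.1 on the ratio left 377 genes 2-fold apart for ROS at day 4 in place of 756.

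Leaving out 1 sample at a time, the members called at day 4 were 1 to 2 higher and 2 to 6 lower (2266 to 8835 genes), at day 8 1 to 2 higher and 2 to 8 lower (3546 to 9494 genes), and between days 4 and 8 0 to 2 higher and 0 to 2 lower (0 to 3699 genes). The 8 lower at day 8 and the 2 lower between days came without day 8 no ROS, and the 2 higher between days without day 8 ROS. The log2 change of Ly6a from day 0 to day 8 then ran from -2.07 to 0.13, the latter without day 8 ROS. From day 4 to day 8, where no member was called with all samples, the log2 change ran from -0.0233 to 1.02 for Dlk1, from -0.51 to 1.69 for Ly6a, from -0.35 to 0.54 for Gata2, from -0.54 to 1.11 for Sox9 and from -0.00134 to 0.53 for Twist1, with a reversal without day 8 no ROS in each. It ran from -0.60 to 0.38 for Pdgfrb, reversed without day 8 ROS or day 4 no ROS (0.29), and from -0.52 to 0.42 for Gata3, reversed without day 8 ROS or day 4 ROS (0.29).

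With 1 WT sample left out, members at least 2-fold higher in WT than in day 8 ROS were 0 to 4, those lower in S265A 0 to 2, those higher in S265D 0 to 4, and in S265D-H1120Y 1 to 2 higher and 1 to 3 lower. Genes 2-fold apart were then 1674 to 2565 for S265A, 1200 to 2855 for S265D and 2065 to 3613 for S265D-H1120Y.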
